A study of Sus scrofa with 16 samples.

Results

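The genes examined here encode sarcomere proteins that exist in a fetal or atrial form and in a form of the mature ventricle. They were chosen by name, as the myosin heavy chains MYH6 and MYH7, the myosin light chains MYL2, MYL3, MYL4 and MYL7, the troponin I genes TNNI1 and TNNI3, and the sarcomeric actins ACTA1 and ACTC1. Of these 10 genes, 8 had an entry among the 22629 genes measured. MYH6 and MYL7 were found neither by symbol nor by a paired Ensembl ID, so the MYH6:MYH7 ratio and the ratios with MYL7 were not analysed here.

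RNA was measured in the left ventricle of White Yorkshire-Landrace farm pigs that underwent surgery at 30 days of age. In the IR group the left anterior descending coronary artery was occluded for 1 h and then reperfused, while in the sham group a suture was placed around the artery and not tightened. Tissue was collected 4 weeks later from 4 IR pigs (females 2 and 14, males 9 and 11) and 4 sham pigs (females 4 and 5, males 12 and 13), with 1 sample of either zone per pig, 16 in all. In IR pigs the scar zone piece was a mixture, with muscle beside the scar in the same sample, and in sham pigs the piece called scar came from the corresponding site.

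The sarcomere is the contractile unit of heart muscle, in which thick filaments of myosin pull on thin filaments of actin under the control of the troponin complex. Several of its proteins are replaced around birth by other members of the same family, and some fetal forms, though not all, are known to return in stressed or failing hearts. The slow skeletal troponin I, TNNI1, gives way to the cardiac form TNNI3, and the atrial essential light chain MYL4, which is also made in the fetal ventricle, gives way to MYL3.

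The libraries held 15427663 to 49045206 estimated counts (median 21822696), at which 3 counts are worth 0.0612 to 0.194 CPM, the counts scaled to library size. The 8 genes took 6.69% to 9.32% of all counts, and the lowest single value was 33.0 estimated counts, so none was at the limit of detection. The Y-linked gene DDX3Y was at 4.49 CPM in IR pig 14's scar zone sample, which is from a female, while the 7 remaining libraries from females had 0.389 to 1.23 CPM and the 8 from males had 68.4 to 103 CPM. The scar zone results for MYL4 and for sex are therefore also given without pig 14. The defining markers of cardiomyocytes were present, since 18 of 20 cardiomyocyte reference genes had an entry and none was at 0 throughout a group.

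None of the 8 genes was called different between IR and sham pigs in either zone, where a call required a change of 2-fold or more and an edgeR adjusted p no higher than 0.05. The background was equally low, with 0% of 14023 genes called in the scar zone and 0% of 13728 in the border zone. DESeq2 also called 0 of the 8 genes in both zones, where it called 52 of 14023 genes (0.371%) in the scar and 2 of 13728 (0.0146%) in the border zone. Limma on TPM called 0 of the 8 as well, against 3 of 12173 genes (0.0246%) in the scar zone and 0 of 12011 in the border zone. At an unadjusted p of 0.05, 1 of 8 genes was higher in IR pigs in the scar zone (MYL4), where 6.57% of all genes were higher and 4.64% lower. Of the 8, TNNI1 alone was lower in IR pigs in the border zone, where 1.69% of all genes were lower and 2.09% higher. Which genes passed unadjusted depended on the fit. With sex as a covariate MYL4 had an unadjusted edgeR p of 0.0535 in the scar zone. In that fit TNNI3 (log2 fold change -0.57, edgeR adjusted p = 0.239) and MYL3 (-0.56, edgeR adjusted p = 0.268) had an unadjusted p of 0.0153 and 0.0244 and were lower in IR pigs, where 8.08% of all genes were lower. Without pig 2, TNNI1, TNNI3, MYL3 and ACTC1 passed unadjusted as lower in the scar zone, where 1139 of 14238 genes were lower. MYL4 did not pass in that fit. The median log2 fold change of the 8 genes was -0.36 (scar zone) and -0.10 (border zone), against 0.03 and 0.00 over all genes tested. The scar zone median was -0.19 without pig 9 and -0.48 without pig 2, and the border zone median ranged from -0.20 without pig 12 to 0.13 without pig 4.

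**Figure D1:**
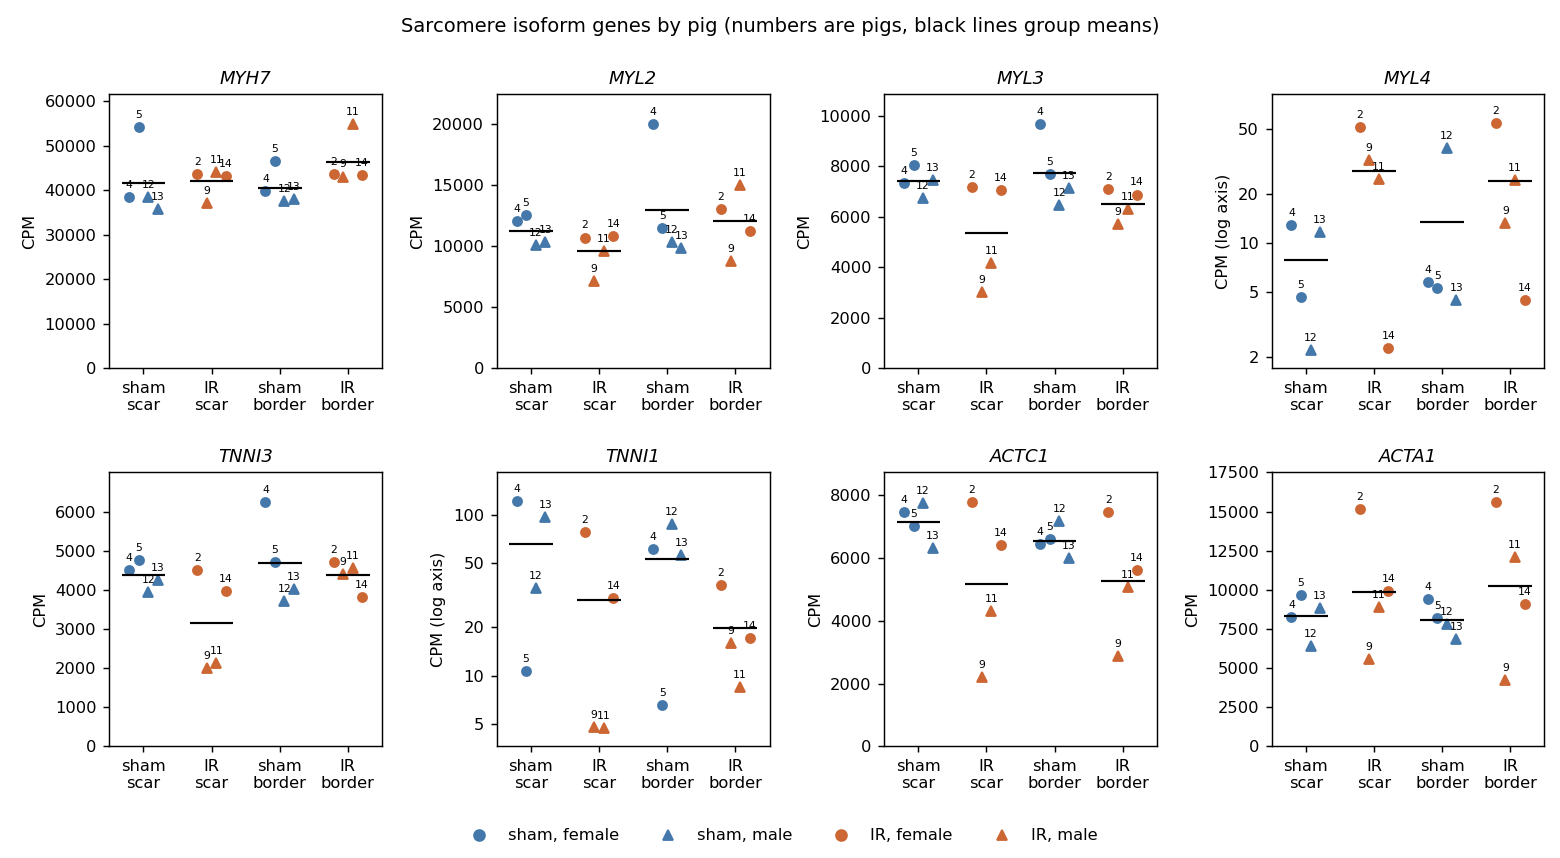
CPM of the 8 sarcomere isoform genes in each of the 4 groups, with 1 point per pig (circles females, triangles males, numbers the pigs), black lines for group means, and log axes for MYL4 and TNNI1. The male IR pigs 9 and 11 had the lowest scar zone values of TNNI3 and MYL3, while 3 of 4 IR pigs had more MYL4 in the scar zone than every sham pig.

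Within a library, levels can be compared between genes in TPM, which are scaled for transcript length. MYL3, the essential light chain of the ventricle, had the highest TPM of the 8 genes in all 4 groups, with scar zone means of 16052 ± 3721 for IR and 19843 ± 1066 for sham (SD, n = 4). MYH7, TNNI3 and ACTA1 followed, and their order differed between pigs. ACTA1 exceeded MYH7 in only 2 of 4 pigs in the IR scar zone and in 2 of 4 in the IR border zone. ACTC1 and MYL2 came next, and ACTC1 was above MYL2 in 3 of 4 pigs of the IR scar zone and in 2 of 4 of the IR border zone. The estimated counts of MYL2 per TPM were 9.46 times those of MYL3 (median of 16 samples, range 8.78 to 9.71), so the order of these light chains depends on the transcript lengths behind the TPM values.

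The fetal isoforms TNNI1 and MYL4 lay far below, with TNNI1 at 5.19 to 156 TPM and MYL4 at 1.64 to 66.5 TPM over all samples. In sham pigs TNNI1 was above MYL4 in 4 of 4 pigs in each zone. In IR pigs TNNI1 was below MYL4 in 2 of 4 pigs in each zone, so the means of these genes (35.8 ± 41.9 and 39.2 ± 28.0 TPM in the scar zone, SD, n = 4) did not differ beyond their spread.

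MYH7, the β-myosin heavy chain that forms the motor of the slow and ventricular thick filament, was by itself 3.58% to 5.24% of all counts. In the scar zone it stood at 43562, 37047, 44061 and 43204 CPM in IR pigs 2, 9, 11 and 14. The sham pigs 4, 5, 12 and 13 had 38450.4, 54096, 38452 and 35785 CPM, which enclosed the IR values. IR and sham differed by 0.00 on the log2 scale (SE 0.21), with an edgeR adjusted p of 0.999. Border zone MYH7 ranged from 43072 to 54924 CPM in IR pigs and from 37499 to 46560.5 CPM in sham pigs, with IR pig 11 above all others. The border zone difference on the log2 scale was 0.19 (SE 0.17, edgeR adjusted p = 0.988), or 0.0972 without pig 11.

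MYL2, the regulatory light chain of the ventricle, was at 10700.2, 7103, 9609 and 10829 CPM in the scar zone of IR pigs 2, 9, 11 and 14. The sham scar zone held 12066, 12577, 10102 and 10334 CPM of MYL2 in pigs 4, 5, 12 and 13. Pigs 9 and 11 were below all sham pigs, and the other IR pigs were within the sham range. The fitted log2 fold change was -0.25 (SE 0.19, edgeR adjusted p = 0.590), and it was -0.14 without pig 9. Border zone MYL2 spanned 8799 to 14983 CPM in IR and 9846 to 20003 CPM in sham pigs, where sham pig 4 was the highest of all 16 samples.

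MYL3 stood at 7162, 3018, 4153 and 7062 CPM in the scar zone of IR pigs 2, 9, 11 and 14, against 7349.7, 8061, 6743 and 7471 CPM in sham pigs 4, 5, 12 and 13. The female IR pigs 2 and 14 lay within the sham range, whereas the males 9 and 11 lay below it. Its log2 fold change was -0.48 (SE 0.27, edgeR adjusted p = 0.501), and it was -0.29 without pig 9. MYL3 in the border zone was at 7082, 5712, 6321 and 6883 CPM in IR pigs and at 9685, 7708, 6458 and 7150.0 CPM in sham pigs, in the same order of pigs. The border zone groups overlapped, and the log2 fold change there was -0.25 (SE 0.16, edgeR adjusted p = 0.988), or -0.13 without pig 4.

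MYL4, the light chain of atria and of the fetal ventricle, was scarce and the most variable of the thick filament genes. The scar zone of IR pigs 2, 9, 11 and 14 held 51.5, 32.2, 24.7 and 2.25 CPM of MYL4. The sham pigs 4, 5, 12 and 13 held 12.9, 4.66, 2.21 and 11.6 CPM. Pigs 2, 9 and 11 were above every sham pig, and pig 14 was close to the lowest sham value. This gave a log2 fold change of 1.82 (SE 0.78), a 3.52-fold difference with an unadjusted edgeR p of 0.0440 and an adjusted p of 0.441. Without pig 14 it was 2.19, with an adjusted p of 0.160, and without pig 2 it was 1.33, with an adjusted p of 0.376. The unadjusted p was 0.0474 with DESeq2, and in edgeR 0.0446 with upper-quartile scaling and 0.0364 with no filter, while it was 0.0615 in a single edgeR fit of all 16 samples and 0.0914 with limma. Leaving out a pig gave an unadjusted edgeR p of 0.00328 without pig 14 and 0.0406 without pig 4, and of 0.0524 to 0.1303 without any other pig.

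Border zone levels of MYL4 were 54.3, 13.2, 24.3 and 4.44 CPM in IR pigs 2, 9, 11 and 14 and 5.74, 5.28, 38.1 and 4.48 CPM in sham pigs 4, 5, 12 and 13. Sham pig 12, with the lowest scar zone value of MYL4 among the 8 pigs, had the second highest border zone value, and the groups overlapped. IR exceeded sham by 0.85 on the log2 scale (SE 0.82, edgeR adjusted p = 0.988). It was 2.22 without pig 12 and 0.08 without pig 2.

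TNNI3, the troponin I of the mature heart, which holds the thin filament off at low calcium, was at 4514, 1996, 2123 and 3962 CPM in the scar zone of IR pigs 2, 9, 11 and 14. In sham pigs 4, 5, 12 and 13 its scar zone values were 4498, 4758, 3957 and 4259 CPM. As for MYL3, the male IR pigs lay below the sham range and the female IR pigs within it. The difference was -0.48 on the log2 scale (SE 0.27, edgeR adjusted p = 0.50). The border zone values were 4716, 4392, 4550.2 and 3826 CPM in IR pigs and 6248, 4718, 3721 and 4022 CPM in sham pigs, which overlapped, with a log2 fold change of -0.10 (SE 0.18, edgeR adjusted p = 0.992).

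TNNI1, the fetal troponin I, stood at 78.0, 4.80, 4.73 and 30.4 CPM in the scar zone of IR pigs 2, 9, 11 and 14. Sham pigs 4, 5, 12 and 13 had 123, 10.7, 35.3 and 96.7 CPM. Only pigs 9 and 11 were below all sham pigs, and the log2 fold change was -1.19 (SE 0.96, edgeR adjusted p = 0.607). It was -2.37 without pig 2 (edgeR adjusted p = 0.253), -0.70 without pig 4 (edgeR adjusted p = 0.842) and -2.01 with sex as a covariate (edgeR adjusted p = 0.366). At the border, IR pigs 2, 9, 11 and 14 had 37.0, 16.1, 8.54 and 17.2 CPM of TNNI1, and sham pigs 4, 5, 12 and 13 had 61.9, 6.56, 88.0 and 56.6 CPM. Each IR pig was below 3 of the 4 sham pigs and above sham pig 5. IR minus sham was -1.43 on the log2 scale (SE 0.64), with an unadjusted edgeR p of 0.0474 and an adjusted p of 0.988. Leaving out a pig in turn gave -1.94 to -1.08. The unadjusted p was 0.0646 with DESeq2, 0.169 with limma and 0.0696 in edgeR with sex as a covariate, and in the other edgeR fits it was 0.132 in a single fit of all 16 samples, 0.0458 with upper-quartile scaling, 0.0343 with no filter, 0.0180 without pig 2 and 0.00154 without pig 5. Leaving out any other pig gave an unadjusted edgeR p of 0.0792 to 0.133.

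ACTC1, the cardiac α-actin of the thin filament, was at 7777, 2207, 4299 and 6390.3 CPM in the scar zone of IR pigs 2, 9, 11 and 14. It was at 7468, 7007, 7742 and 6305 CPM in that of sham pigs 4, 5, 12 and 13, so that pigs 9 and 11 were again below the sham range. Its fitted log2 fold change was -0.47 (SE 0.33, edgeR adjusted p = 0.563), with -0.74 without pig 2 and -0.23 without pig 9. Pigs 9 and 11 were also low in the border zone, at 2865 and 5062 CPM, where IR pig 14 had 5611, IR pig 2 had 7439 and the sham pigs 5997 to 7162 CPM. The border zone log2 fold change of ACTC1 was -0.32 (SE 0.25, edgeR adjusted p = 0.988), with -0.54 without pig 2 and -0.11 without pig 9.

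ACTA1, the skeletal α-actin that the heart also makes, was at 15185, 5571, 8898 and 9929.7 CPM in the scar zone of IR pigs 2, 9, 11 and 14 and at 8282, 9699.8, 6439 and 8826 CPM in that of sham pigs 4, 5, 12 and 13. Pig 2 was far above and pig 9 below the sham pigs. The log2 fold change was 0.24 (SE 0.29, edgeR adjusted p = 0.729), and it was -0.04 without pig 2. Border zone ACTA1 spanned 4262 to 15626 CPM in IR and 6889 to 9429 CPM in sham pigs, and IR exceeded sham by 0.35 on the log2 scale (SE 0.33, edgeR adjusted p = 0.988). This was 0.0706 without pig 2 and 0.61 without pig 9 (edgeR adjusted p = 0.673).

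**Figure D2:**
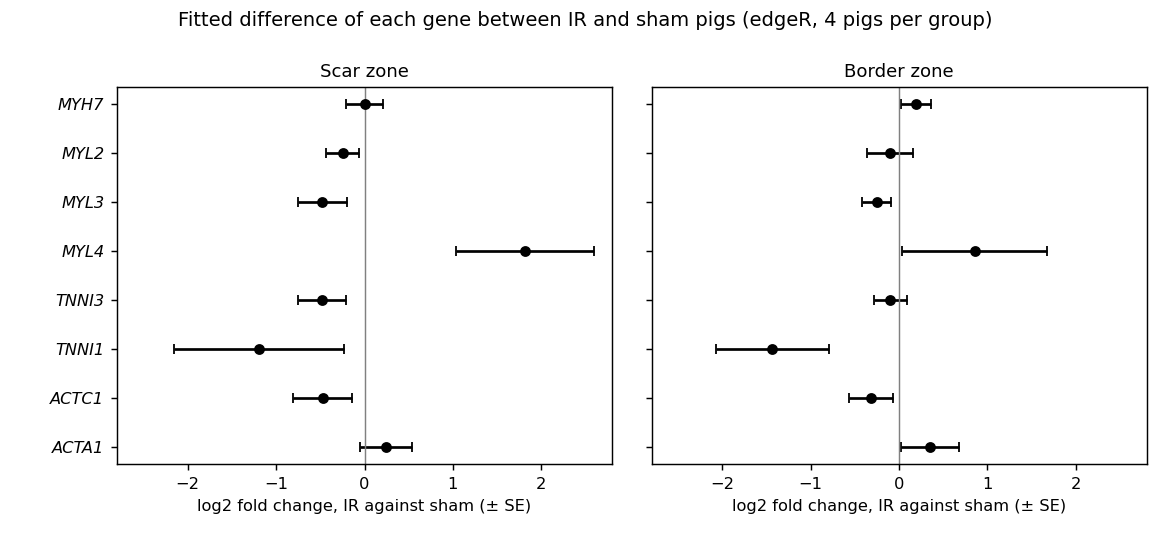
Fitted log2 fold change of IR against sham pigs for each gene (points, with bars of 1 SE) in either zone, from edgeR with 4 pigs per group. MYL4 was 1.82 in the scar zone, TNNI1 was -1.19 and -1.43 in the scar and border zones, and the other 6 genes lay between -0.48 and 0.35 in both zones.

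Ratios between isoforms compare genes within 1 library, and they were formed as log2 of TPM + 0.1. The ACTA1:ACTC1 ratio in TPM was 2.17, 2.81, 2.30 and 1.72 in the scar zone of IR pigs 2, 9, 11 and 14. It was 1.24, 1.54, 0.926 and 1.56 in sham pigs 4, 5, 12 and 13, so that all 4 IR pigs were above all 4 sham pigs. ACTA1 made up 68.8% ± 4.3 of the TPM of both actins in IR and 56.2% ± 6.0 in sham scar zones (SD, n = 4). The ratio was 1.72-fold higher in IR pigs, a log2 difference of 0.78, with a two-sided exact permutation p of 0.0286, the smallest that 4 pigs against 4 can give. Adjusted over the 20 ratio tests this p was 0.571, so the difference did not pass the correction. Without the scar zone libraries of pigs 9 and 11 the log2 difference was 0.59 (exact permutation p = 0.133), and both remaining IR pigs were above the sham pigs.

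The same ratio in the border zone was 2.35, 1.66, 2.67 and 1.81 in IR pigs 2, 9, 11 and 14, against 1.68, 1.402, 1.22 and 1.28 in sham pigs 4, 5, 12 and 13. Pigs 2, 11 and 14 were above every sham pig, and pig 9 was just below sham pig 4. The log2 difference was 0.59 (exact permutation p = 0.0571, adjusted p = 0.571 over the 20 tests). Neither actin gene on its own separated the groups in either zone. In IR pig 9 both actins were low and in IR pig 2 both were high.

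The TNNI1:TNNI3 ratio stayed far on the mature side, with TNNI1 at 0.0880% to 1.82% of the TPM of both genes over the 16 samples. TNNI1 made up 0.486% ± 0.486 in IR and 1.01% ± 0.768 in sham scar zones (SD, n = 4). IR minus sham was -1.119 for the log2 ratio, with overlapping groups and an exact permutation p of 0.286 (adjusted p = 0.929). Without the scar zone libraries of pigs 9 and 11 it was higher by 0.12 in IR pigs. These pigs had the lowest log2 ratios of the IR scar zone (-9.31 and -9.67), so leaving them out had to raise the IR mean. The border zone difference was -1.10 (exact permutation p = 0.343, adjusted p = 0.929).

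The ratios of MYL4 to the ventricular light chains followed MYL4 itself. MYL4:MYL3 was at a log2 ratio of -9.43 ± 2.44 in IR and -11.54 ± 1.42 in sham scar zones (SD, n = 4), with 3 of 4 IR pigs above all sham pigs. The log2 difference was 2.11 (exact permutation p = 0.171, adjusted p = 0.929), and without pig 14 it was 3.32 (exact permutation p = 0.0286). For MYL4:MYL2 the scar zone log2 difference was 1.85 (exact permutation p = 0.200, adjusted p = 0.929), and 2.96 without pig 14 (exact permutation p = 0.0286). Pig 14 was the only IR pig not above all sham pigs in these ratios, so leaving it out had to separate the groups. Separation gives the smallest exact permutation p that 3 pigs against 4 allow, 0.0286. It was not adjusted, and nothing is concluded from it. The border zone log2 differences were 1.25 for MYL4:MYL3 and 1.1 for MYL4:MYL2, with exact permutation p values of 0.314 and 0.371.

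**Figure D3:**
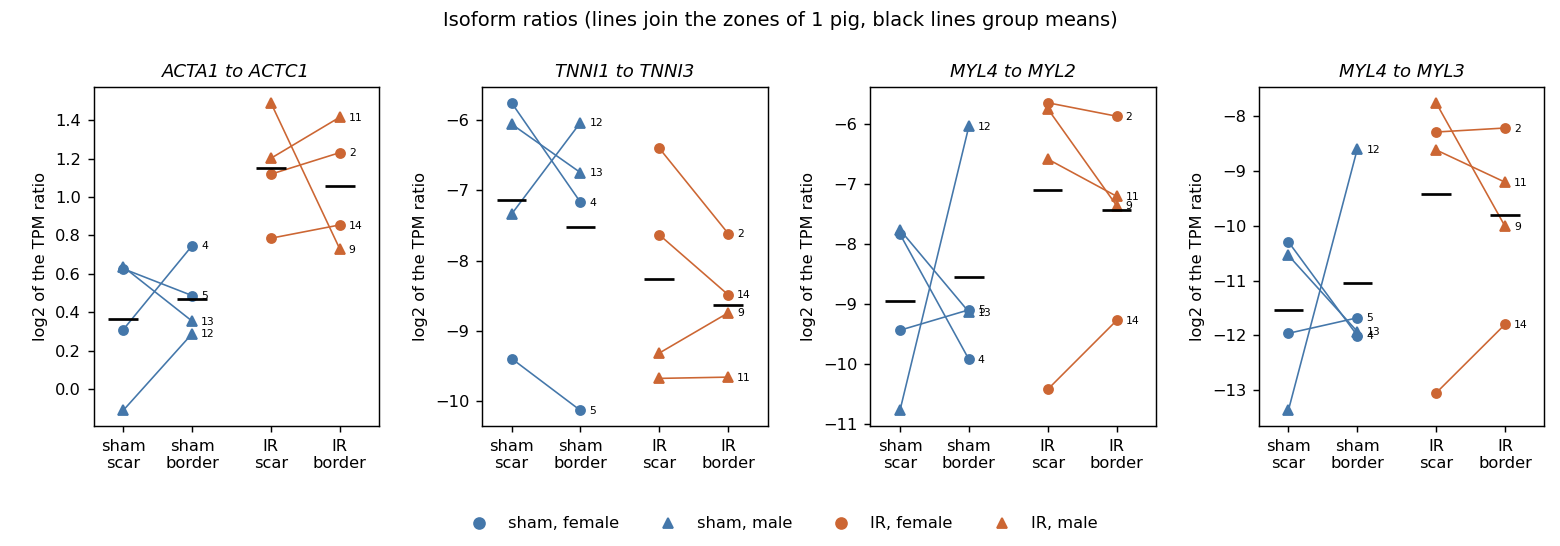
Log2 of the TPM ratio of each isoform pair by pig, with lines joining the scar and border zone samples of 1 pig and black lines for group means. All 4 IR pigs were above all 4 sham pigs for ACTA1:ACTC1 in the scar zone, whereas the groups overlapped for TNNI1:TNNI3, MYL4:MYL2 and MYL4:MYL3 in both zones.

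The bulk samples mix muscle with other cells, and fewer cardiomyocytes in a sample cannot be told apart from less RNA per cardiomyocyte. The 10 fibroblast markers summed to 10037 TPM in the scar zone of IR pig 9 and to 10247 TPM in that of IR pig 11, the libraries with the lowest TNNI3 and MYL3. In the other IR scar zones the sum was 1774 (pig 2) and 1381 (pig 14), and it was 1759.8 to 2439 in the sham scar zone, 1765 to 2188 in the IR border zone and 1477 to 2276 in the sham border zone. All 10 markers had an entry, none was at 0 throughout a group, and all 10 had a positive scar zone log2 fold change, of which 3 had an unadjusted edgeR p of at most 0.05 (against 6.57% of all genes) and 0 were called. The 10 leucocyte markers were also highest in these libraries, with sums of 138 and 107 TPM in the scar zone of IR pigs 9 and 11 against 33.7 to 77.0 TPM in the other 14 libraries. All 10 leucocyte markers had an entry, none was at 0 throughout a group, and all 10 had a positive scar zone log2 fold change, of which 1 (CD79A) had an unadjusted edgeR p of at most 0.05 and 0 were called. The part of fibroblasts and of leucocytes in the low TNNI3, MYL3, MYL2 and ACTC1 of pigs 9 and 11 was not tested. In the same libraries TNNI1 was at its lowest values, while MYL4 was above every sham pig.

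Each gene was therefore also set against the mean log2 CPM of the 18 cardiomyocyte reference genes (calcium handling, energy metabolism and other muscle genes) of the same library. That mean was 8.42 ± 0.31 in the IR and 8.61 ± 0.10 in the sham scar zone, and 8.64 ± 0.16 and 8.59 ± 0.10 in the border zone (log2 CPM, SD, n = 4). Relative to it, MYL3 in the border zone was at 4.12, 4.07, 3.90 and 4.00 log2 units in IR pigs 2, 9, 11 and 14 and at 4.65, 4.21, 4.19 and 4.19 in sham pigs 4, 5, 12 and 13. All 4 IR pigs were below all sham pigs, with a difference of -0.29 and an exact permutation p of 0.0286, which was 0.366 adjusted over the 16 tests. Relative to the same mean, scar zone MYL3 differed by -0.37 (exact permutation p = 0.0571), that of TNNI3 by -0.37 and that of ACTC1 by -0.42 (exact permutation p = 0.114 for both). Relative MYH7 was higher by 0.21 and relative ACTA1 by 0.37 in the scar zone of IR pigs, with exact permutation p values of 0.200 and 0.171. Single pigs weighed heavily in these scar zone differences. In IR pigs relative ACTC1 was 3.10 in pig 9 and 3.71 to 4.31 in the others. Relative TNNI3 was 2.95 and 2.69 in pigs 9 and 11 and 3.52 and 3.25 in pigs 2 and 14. Relative ACTA1 was 5.27 in pig 2 and 4.43 to 4.76 in the others. None of the 16 relative levels passed the adjustment.

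MYL4 is also a marker of atrial muscle, so the atrial list was read beside it. Its 12 genes all had an entry, none was at 0 throughout a group, and their summed TPM was 277 to 1927 in the IR scar zone, 208 to 349 in the sham scar zone, 263 to 793 in the IR border zone and 190.1 to 864 in the sham border zone. NPPA alone made up 1606 of the 1927 TPM in the scar zone of pig 9 and 1063 of the 1306 TPM in that of pig 2, and without it the sums were 210.0 to 320.2 in the IR scar zone, 157 to 226 in the sham scar zone, 143 to 201 in the IR border zone and 129 to 466 in the sham border zone. The highest sham sum, 864 TPM, was that of the border zone of pig 12, the sham library with the most MYL4, and the lowest IR scar zone sum was that of pig 14. Of the 11 atrial genes tested in the scar zone, 2 were higher (NPPA and DKK3) and 1 lower (KCNA5) at an unadjusted edgeR p of 0.05, against 6.57% and 4.64% of all genes, and 0 were called. Their log2 fold changes were positive for 5 and negative for 6, with a median of -0.14 against 0.03 over all genes. SLN, a regulator of the calcium pump in atrial muscle, was at most 0.820 CPM in every library. The part of atrial muscle in the MYL4 levels was not tested.

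**Figure D4:**
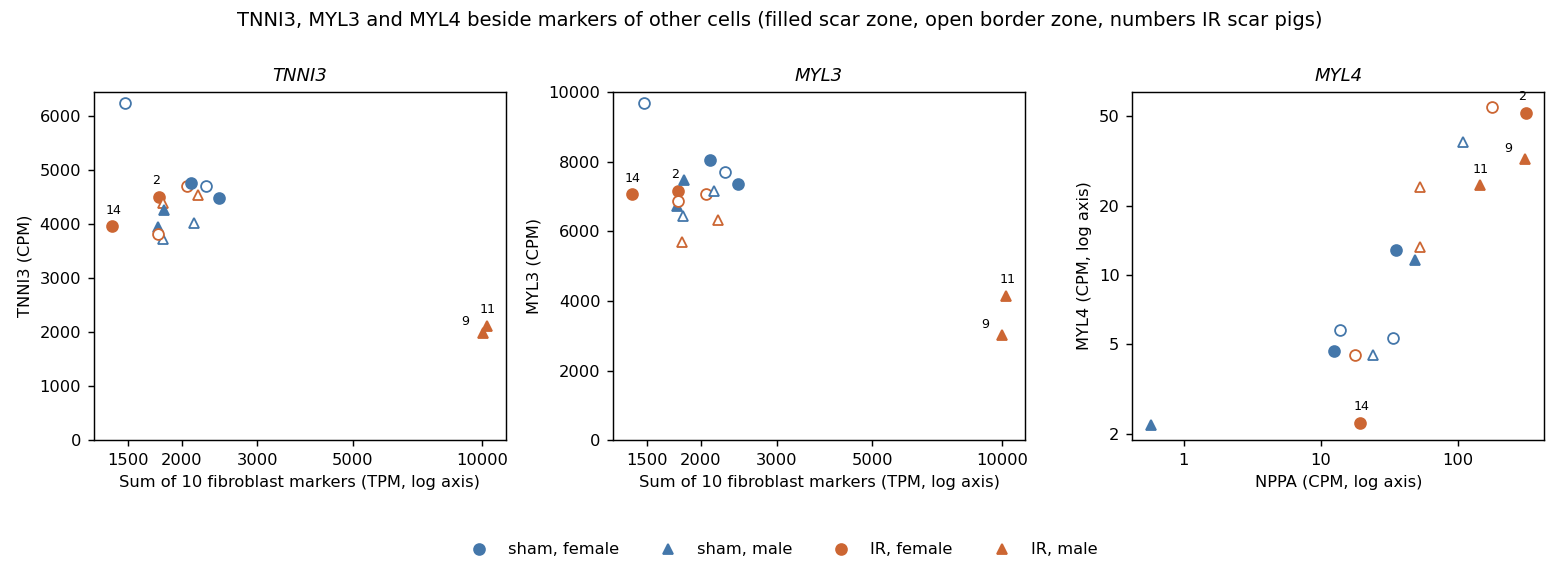
CPM of TNNI3 and MYL3 against the summed TPM of 10 fibroblast markers, and of MYL4 against NPPA (log axes for the marker levels and for MYL4), with filled symbols for the scar zone, open symbols for the border zone and numbers for the IR scar zone pigs. Pigs 9 and 11 stand apart at fibroblast sums of 10037 and 10247 TPM with the lowest TNNI3 and MYL3, and the libraries with the most NPPA also had the most MYL4.

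ACTA1 and TNNI1 are genes of skeletal muscle too. The summed TPM of the 11 skeletal muscle markers with an entry was 23.4 to 90.8 in the IR scar zone, 20.9 to 54.5 in the sham scar zone, 9.66 to 58.4 in the IR border zone and 18.0 to 37.9 in the sham border zone. MYLPF, the fast skeletal regulatory light chain, was at 0 in all IR libraries, and TNNT3, the fast skeletal troponin T, was at 0 in all sham libraries. ACTA1 alone was at 4136 to 13968 TPM.

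Within hearts, the zones were compared in the pigs that gave both. None of the 8 genes was called between scar and border zone in IR pigs or in sham pigs, nor for how far the IR effect differed from zone to zone, and 0% of all genes were called in each of these comparisons. At an unadjusted edgeR p of 0.05 without the pig as a block, no member passed in any of these 3 comparisons, against 4.35%, 0.819% and 2.22% of all genes in either direction. With the pig as a replicate block, which pairs the zones of 1 animal, again no member was called or passed unadjusted. In these paired fits 0% of all genes were called, while 11.3%, 4.77% and 6.99% of all genes passed unadjusted. DESeq2 called 0 members as well, against 4 of 14170 genes (0.0282%) in IR pigs, 1 of 13803 (0.00724%) in sham pigs and 0 of 14278 for the difference in the IR effect. MYL2 was below the border zone in the scar zone of 4 of 4 IR pigs, with a mean log2 difference of -0.32 ± 0.24 (SD, n = 4). The scar zone MYH7 of IR pigs 9 and 11 was lower by log2 differences of -0.22 and -0.32, and in IR pigs 2 and 14 the zones were within 1.004-fold. TNNI3 had log2 differences of -1.14 and -1.10 in IR pigs 9 and 11, and of -0.0631 and 0.0503 in IR pigs 2 and 14. In pigs 9 and 11 the fibroblast marker sum was 1812 and 2188 TPM in the border zone, against 10037 and 10247 TPM in the scar zone, and its part in the TNNI3 difference was not tested. The mean for TNNI3 was -0.56 ± 0.64, and the log2 difference with the replicate block was -0.56 (SE 0.25, edgeR adjusted p = 0.431). ACTC1 was higher in the scar zone piece in 4 of 4 sham pigs, by 0.12 ± 0.06 on the log2 scale.

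For the rare isoforms the zones of 1 heart were set against the range between hearts, taken on the mean of both zones. TNNI1 differed between zones by at most 3.31-fold in IR and 2.49-fold in sham pigs, against 8.35-fold and 10.3-fold between pigs. MYL4 differed between zones by at most 2.42-fold in IR pigs, against 16.3-fold between pigs. In sham pigs the MYL4 difference between zones was 16.7-fold in pig 12, against 1.85-fold between pigs. In sham pig 12 MYL4 went from 2.21 CPM in the scar zone to 38.1 CPM in the border zone, a log2 difference of -4.06, and in sham pig 4 from 12.9 to 5.74 CPM. The 4 isoform ratios showed no zone difference that passed, with exact sign-flip p values of 0.50 to 1.00 in IR pigs and 0.50 to 0.875 in sham pigs, tests that cannot go below 0.05 with 4 pigs. The IR effect on the ratios also did not differ detectably between zones. The log2 difference between scar and border zone effects was 0.19 for ACTA1:ACTC1 (exact permutation p = 0.600), -0.02 for TNNI1:TNNI3, 0.73 for MYL4:MYL2 and 0.87 for MYL4:MYL3 (exact permutation p = 0.743 to 0.971).

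Each group held 2 females and 2 males, so sex was compared with surgery in the model. Of the 8 genes, 3 were lower in males in the scar zone at an unadjusted p of 0.05, where 9.73% of all genes were lower, and 0 of 8 were called, against a background of 0.0821%. The 3 genes were TNNI3 (log2 difference -0.62, SE 0.19), MYL3 (-0.57, SE 0.21) and MYL2 (-0.33, SE 0.14), with edgeR adjusted p values of 0.170, 0.206 and 0.240. DESeq2 gave TNNI3 an adjusted p of 0.0204 with a difference below 2-fold, and 6.34% of all genes had an adjusted p no higher than 0.05 in that fit. Without pig 14 only TNNI3 passed unadjusted (-0.58, edgeR adjusted p = 0.195), 1 of 8 genes against 9.58% of all genes, and MYL3 (-0.50) and MYL2 (-0.32) did not. Leaving out each pig in turn gave 1 to 4 of the 8 genes lower in males, with 1 also without pig 2. Over all genes the share lower in males ranged from 904 of 15113 without pig 2 to 1548 of 15154 without pig 4. The lowest male values were those of IR pigs 9 and 11. All 10 fibroblast markers had a positive male minus female log2 difference in the scar zone (median 0.94, against 0.03 over all genes). Of these 2 passed unadjusted, where 1420 of 14624 genes were higher in males. Of the 18 cardiomyocyte reference genes 14 were negative and 9 passed unadjusted as lower in males. The part of either in the sex differences was not tested. In sham pigs TNNI3 was at 3957 and 4259 CPM in the males and at 4498 and 4758 CPM in the females, MYL2 was at 10102 and 10334 CPM in the males and at 12066 and 12577 CPM in the females, and MYL3 overlapped between the sexes. MYL3 was the 1 of 8 genes lower in males in the border zone at an unadjusted p of 0.05 (-0.30, SE 0.13, edgeR adjusted p = 0.587), where 3.69% of all genes were lower, and 0 of 8 were called against 0.0772% of genes. MYL3 did not pass unadjusted there without pig 2, 4, 9, 12, 13 or 14.

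Among 55 other sarcomere genes, 50 had an entry. Of these, 42 were tested in the scar zone and 0 were called, with 2 higher and 3 lower in IR pigs at an unadjusted edgeR p of 0.05, where 6.57% of all genes were higher and 4.64% lower. Their median log2 fold change was 0.02, against 0.03 over all genes. The counts are near those shares, and the genes are given as a description. MYOM3, an M-band protein that ties thick filaments together, was at 221 to 362 CPM in IR and 396 to 585 CPM in sham scar zones, which did not overlap (log2 fold change -0.74, SE 0.18, edgeR adjusted p = 0.438). MYLK3, the kinase that phosphorylates the regulatory light chain MYL2, was at 71.4 to 155 CPM in IR and 142 to 210.4 CPM in sham pigs (-0.70, SE 0.24). TNNT1, the slow skeletal troponin T that is also a fetal heart isoform, was at 194 to 362 CPM in IR and 87.1 to 249 CPM in sham pigs, with overlap (0.96, SE 0.36). UNC45B, a myosin chaperone, was at 151 to 175 CPM in IR and 178 to 199 CPM in sham pigs, without overlap (-0.25, SE 0.10). The remaining gene was XIRP2, an actin-binding protein, named because it completes the count of 5 (log2 fold change 0.80, SE 0.34). These 5 genes had an edgeR adjusted p of 0.438 each.

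Of the same list, 40 genes were tested in the border zone, of which 0 were called and 2 were higher at an unadjusted edgeR p of 0.05, where 2.09% of all genes were higher and 1.69% lower. The median log2 fold change was 0.07, against 0.00 over all genes. XIRP1, an actin-binding protein of the intercalated disc, was at 479 to 1022 CPM in IR and 389 to 629 CPM in sham pigs (log2 fold change 0.64, SE 0.23, edgeR adjusted p = 0.988). MYPN, a protein of the Z-disc, was at 146 to 272 CPM in IR and 148 to 160.4 CPM in sham pigs (0.42, SE 0.18, edgeR adjusted p = 0.988).

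Other genes of the fetal and of the mature heart were counted in the same way. Of 9 other fetal heart genes tested in the scar zone, 3 were higher at an unadjusted edgeR p of 0.05 (NPPA, NPPB and LIN28B), against 6.57% of all genes, and 0 were called, with a median log2 fold change of 0.25 against 0.03 over all genes. The natriuretic peptide NPPA, which is also on the atrial list, was at 19.5 to 314 CPM in IR and 0.579 to 48.8 CPM in sham scar zones. NPPB was at 151 to 552 CPM in IR and 2.68 to 109 CPM in sham scar zones. LIN28B was scarce, at 0.520 to 1.11 CPM in IR and 0.259 to 0.470 CPM in sham scar zones. Of 11 other mature heart genes, 1 was lower (the potassium channel KCNJ2), against 4.64% of all genes, and 0 were called, with a median of -0.28. No gene of either list (0 of 8 and 0 of 11) had a border zone unadjusted p of at most 0.05.

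Across the 16 samples, TNNI3 and MYL3 varied together, with a Pearson r of 0.93 in log2 CPM, and MYL3 and ACTC1 had an r of 0.80. MYL4 had r values between -0.42 (with MYL3) and 0.31 (with ACTA1), and TNNI1 and MYH7 had an r of -0.54. These correlations and those that follow are descriptions over samples that include 2 zones of each pig. Among 12137 genes listed by symbol, those most like TNNI3 were COX4I1 (r = 0.97) and ATP5F1E (0.97), which encode subunits of mitochondrial respiratory complexes. MYL4 was most like NPPA (0.86) and NPNT (0.85), and TNNI1 most like KIFC3 (0.91) and CDC7 (0.88). ACTA1 was most like HOMER2 (0.93) and GPAT4 (0.92), ACTC1 like BCKDK (0.94) and PPP2R3B (0.93), MYL2 like RPL23 (0.95) and OAZ1 (0.95), and MYH7 like VCP (0.85) and UBQLN1 (0.84).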

How the data were processed

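RNA from 2 zones of 8 pigs was sequenced (16 samples), and surgery, zone, sex and pig were read from the labels. Per the submitters' processing notes the tools were Trimmomatic 0.33, HISAT2 2.0.5 and kallisto 0.43.1. The authors deposited estimated counts per gene, which are not scaled for depth, and TPM, which are scaled for transcript length and depth. The genome build is not given in the sources used here, so no positions are printed, and no sequences were used.

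After rounding to whole numbers, the estimated counts were tested in R 4.3.3 with edgeR 4.0.16 (TMM, filterByExpr with a minimum count of 10 and a minimum total of 15, quasi-likelihood test, p-values adjusted by Benjamini-Hochberg across every gene in the fit). A call required a change of 2-fold or more and an adjusted p no higher than 0.05. The SE beside an edgeR log2 fold change is its absolute value divided by the square root of the quasi-likelihood F statistic. CPM are TMM-scaled, with a prior count of 2 in log2 CPM. Ratios are log2((TPM + 0.1)/(TPM + 0.1)) and were tested with exact two-sided permutation tests (Python 3.11.15), adjusted over 20 tests. Estimated counts divide reads among near-identical transcripts, which bears on ACTA1 and ACTC1. Replicates are separate pigs. The scar and border samples of a pig come from 1 animal, and their deviations from the group means correlated at 0.354 to 0.692 over 14278 genes, so the pig pairs the zones. The tests across zones were run without a block and, as an alternative, with the pig as a replicate block.

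Alternatives were DESeq2 1.42.0, upper-quartile scaling, no filter, limma 3.58.1 on log2(TPM + 1), a single fit of 16 samples, sex as a covariate, the pig as a block, an unadjusted p, other pseudocounts and leaving out each pig. With limma on TPM the median log2 fold change of all genes in the scar zone was 0.15 in place of 0.03. Upper-quartile scaling and the single fit for the counts of calls, log2 CPM ratios and the fits without the scar zone libraries of pigs 9 and 11 were added after seeing the data. The genes, lists and ratios were chosen with earlier results of these data known. Named beside them are the 4 other sarcomere genes with the smallest unadjusted p in the scar zone and the 2 in the border zone, and for each of the 8 genes the 2 most correlated genes, those of MYL3 not being reported here. The tests were checked on simulated data. Marker lists of smooth muscle, leucocytes, endothelium and epicardium were also counted. In the scar zone 2 of 9, 1 of 10, 0 of 7 and 1 of 4 tested genes were higher at an unadjusted edgeR p of 0.05, against 6.57% of all genes, and 0 were called.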

Additional observations from a re-analysis of the deposited data

Results flagged for a closer look

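In 6 of 48 sets of 4 values, 1 pig stood far from the other 3. Chance alone gives about 1 in 20 for a single set. The sets share genes and libraries, so the count of 6 cannot be set against that rate. MYH7 was at 15.18 log2 CPM in the IR scar zone of pig 9, against 15.40 to 15.43 in the other IR pigs. In the IR border zone MYH7 was at 15.75 log2 CPM in pig 11, against 15.39 to 15.41. TNNI1 was at 2.73 log2 CPM in the sham border zone of pig 5, the other sham pigs being at 5.82 to 6.46. MYL4 was at 5.26 log2 CPM in the sham border zone of pig 12, against 2.19 to 2.54 in the other sham pigs, and its log2 ratio to MYL3 there was -8.60, against -12.004 to -11.68. The log2 ratio of MYL4 to MYL3 was -13.05 in the IR scar zone of pig 14, against -8.62 to -7.76 in the other IR pigs.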

How the results depend on the processing

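The count of 0 members called held in all 7 comparisons under every alternative run, replicate block included (0 called), except that 1 member passed in the scar zone (MYL4) and 1 in the border zone (TNNI1) when an unadjusted p with a fold change of 2 was used. By that rule 470 of 14023 genes passed in the scar zone and 109 of 13728 in the border zone. For ACTA1:ACTC1 in the scar zone, permuting within sex gave the same log2 difference of 0.78 with an exact p of 0.0556, the smallest that this test allows, and leaving out the scar zones of pigs 9 and 11 gave 0.59. Leaving out each pig gave 0.62 to 0.90, with an exact permutation p of 0.0571 without pig 4 or pig 12. In the border zone this difference was 0.60 from estimated counts + 1 and 0.60 from log2 CPM (exact permutation p = 0.0286 for both), and 0.47 to 0.70 without 1 pig. It passed unadjusted without pig 9, the only IR pig not above all sham pigs, where the groups had to separate. The scar zone differences ranged without 1 pig from 1.24 to 2.96 for MYL4:MYL2 and from 1.503 to 3.32 for MYL4:MYL3, the highest being without pig 14. For TNNI1:TNNI3 in the scar zone, -1.12 became 0.12 without the scar zones of pigs 9 and 11, and the range without 1 pig was -1.87 to -0.65. The zone difference of the IR effect changed sign for TNNI1:TNNI3 (0.0332 from TPM + 1, 0.0298 from estimated counts + 1 and 0.0339 from log2 CPM, -0.58 to 0.33 without 1 pig), ACTA1:ACTC1 (-0.0286 to 0.32, negative without pig 9), MYL4:MYL2 (-0.71 to 1.56) and MYL4:MYL3 (-0.56 to 1.60), the last of these negative without pig 12. Fold changes near 0 also changed sign. MYH7 in the scar zone was -0.0107 with DESeq2, -0.000629 with upper-quartile scaling, -0.0171 without a filter and -0.0690 to 0.15 without 1 pig. Without 1 pig, ACTA1 in the scar zone ranged from -0.0449 to 0.43, and TNNI3 and MYL2 in the border zone from -0.19 to 0.0725 and from -0.23 to 0.19. Relative to the median of the reference genes MYL2 was 0.0223 in the scar and 0.0224 in the border zone and TNNI3 0.0177 in the border zone, and relative to their mean the ranges without 1 pig were -0.10 to 0.00266 and -0.23 to 0.12 for MYL2, -0.20 to 0.0329 for TNNI3 and -0.0800 to 0.46 for ACTA1 in the border zone. The cause of these changes was not tested. With 4 pigs per group and these spreads, log2 differences of MYL4 and TNNI1 had standard errors of 0.64 to 0.96, and differences of 1.82 and -1.43 did not pass the adjustment.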
